A study of Homo sapiens with 12 samples.

Results

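The integrated stress response was followed through 10 genes, ATF4, ATF3, DDIT3, TRIB3, CHAC1, SESN2, ASNS, PSAT1, PHGDH and HSPA5, chosen by name from the 33514 gene symbols of the deposited count tables. All 10 were detected in each of the 12 samples, and all 10 were among the 17897 genes with enough counts to be tested. Single-cell RNA sequencing (scRNA-seq) had been performed on SCC1, SCC6 and SCC25, 3 established cell lines of head and neck squamous cell carcinoma (HNSCC) treated with cetuximab, an antibody against the epidermal growth factor receptor. Each line received 100 nM cetuximab (CTX) or phosphate-buffered saline (PBS, untreated) every day for 5 days, with 2 replicates per group and 6 groups. All groups shared the same culture medium with serum, and all cells were trypsinised before capture. They are tumour cell lines grown alone in culture, so the comparisons describe these lines and not tumours.

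The integrated stress response begins when a kinase such as PERK (EIF2AK3), GCN2 (EIF2AK4), PKR (EIF2AK2) or HRI (EIF2AK1) phosphorylates the alpha subunit of the translation factor eIF2. Bulk protein synthesis then slows, while the messenger RNA of the transcription factor ATF4 is translated more. ATF4, often with its partner CHOP (the product of DDIT3), raises transcription of genes for amino acid supply, glutathione handling and feedback control. HSPA5 encodes BiP, a chaperone of the endoplasmic reticulum (ER) that belongs mainly to the unfolded protein response, the branch that senses protein folding. Because ATF4 is controlled largely by translation, its transcript level is not a direct measure of its activity.

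The sequences around the annotated transcription starts were searched for letters read by the pathway. In windows from 250 bases before to 50 bases after each annotated start (RefSeq, GRCh38.p14, 16 windows for the 10 genes), the core of the C/EBP-ATF response element, TGATGNAA on either strand, was found for ASNS, ATF3 and CHAC1. The same letters were present in 3 of the 16 windows, against 3.62% of 35116 windows of equal length from all genes. The ER stress response element, CCAAT and CCACG separated by 9 unspecified bases on either strand, was present in 0.0769% of those windows and, among the 10 genes, in that of HSPA5. The cyclic AMP response element TGACGTCA was present in 1.85% of all windows and in none of these 16. No window of the 10 genes held more than 1 match, and a match is a description of the letters and not of binding. Sequence outside the windows was not searched, so a gene without a match is not shown to lack the element. The matches began 68 bases before the start for ASNS, 191 for ATF3, 209 for CHAC1 and 66 for HSPA5. The 250 bases before the start of ASNS (chr7:97872409-97872658, minus strand), CHAC1 (chr15:40953221-40953470, plus strand) and HSPA5 (chr9:125241344-125241593, minus strand) are shown from 5′ to 3′ with the matched letters in capitals, because ASNS and CHAC1 represent the ATF4 arm and HSPA5 the folding arm in the results that follow. CHAC1 carries the element on the opposite strand, so that its capitals are the reverse complement.
ASNS: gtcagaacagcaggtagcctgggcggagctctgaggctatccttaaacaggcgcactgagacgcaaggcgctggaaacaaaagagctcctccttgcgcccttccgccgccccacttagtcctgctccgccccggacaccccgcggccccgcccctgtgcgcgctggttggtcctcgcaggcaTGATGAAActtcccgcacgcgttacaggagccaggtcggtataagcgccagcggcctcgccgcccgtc
CHAC1: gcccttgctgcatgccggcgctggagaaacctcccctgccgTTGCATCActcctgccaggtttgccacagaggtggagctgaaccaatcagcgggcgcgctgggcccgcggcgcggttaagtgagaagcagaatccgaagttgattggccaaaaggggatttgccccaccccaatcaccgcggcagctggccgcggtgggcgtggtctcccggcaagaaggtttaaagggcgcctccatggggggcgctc
HSPA5: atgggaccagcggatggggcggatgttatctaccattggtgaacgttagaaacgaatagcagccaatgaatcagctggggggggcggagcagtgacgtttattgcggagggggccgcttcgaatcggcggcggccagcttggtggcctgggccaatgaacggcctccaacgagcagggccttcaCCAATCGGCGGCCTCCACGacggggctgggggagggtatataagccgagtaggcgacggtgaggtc

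The 12 libraries held 961 to 2854 cells and 57057402 to 112170073 unique molecular identifiers (UMIs) each, with median depths of 24078.5 to 54864 UMIs per cell. Counts were summed over the cells of a sample, and levels are given as CPM, the UMI count set to a common library size with factors from the trimmed mean of M-values (TMM). A level in such a sum cannot tell fewer expressing cells from less RNA per cell. The median share of mitochondrial UMIs was higher in replicate 2 than in replicate 1 in 6 of 6 groups, with values from 2.49% to 5.67% over the 12 libraries. The 10 squamous epithelial markers were detected in every sample, but KRT5 and KRT14, which define basal keratinocytes, were at 1.16 to 4.47 and 0.424 to 2.52 CPM in the SCC6 libraries against 324 CPM or more elsewhere. Among 8 blood and endothelial markers, PTPRC, which defines leukocytes, was at 0 in 8 libraries and at most at 0.0691 CPM, and 6 others reached at most 0.382 CPM. The remaining one, CD14, was at 8.23 to 13.5 CPM in SCC1, 1.41 to 5.24 CPM in SCC25 and at most 0.111 CPM in SCC6. The summed level of 8 fibroblast markers was higher with cetuximab than with PBS in each line without overlap, at 7.53 and 7.23 against 15.4 and 16.6 CPM in SCC1, 1.15 and 3.33 against 27.3 and 23.0 CPM in SCC6 and 21.9 and 42.5 against 46.5 and 84.3 CPM in SCC25, and its part in the results was not tested. The 8 markers did not move alike. COL1A2 was at 4.70 and 4.39 against 10.3 and 13.4 CPM in SCC1, and COL1A1 at 1.03 and 2.75 against 22.6 and 18.8 CPM in SCC6. LUM overlapped in SCC25, at 8.57 and 30.6 against 18.1 and 58.0 CPM. THY1 was at 1.99 and 1.26 against 1.84 and 1.32 CPM in SCC25, and PDGFRA was at most at 0.185 CPM in any library. Between 3 and 10 cell barcodes occurred in both replicates of a group, and between 1 and 13 in any pair of libraries from separate groups.

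Among the PBS samples, which were collected after the same 5 days, the genes called between lines were 2 transcription factors and 1 enzyme of serine synthesis. ATF4 was highest in SCC6, ATF3 was lowest in SCC25, and PSAT1 was lowest in SCC1. Each pair of lines differed in 2 of the 10 genes, against 40.2% of all tested genes between SCC6 and SCC1, 40.8% between SCC25 and SCC1 and 40.9% between SCC6 and SCC25. The untreated lines were thus no more different in these 10 genes than in the tested genes as a whole.

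ATF4, the central transcription factor, was at 180 and 137 CPM in the SCC1 PBS replicates, at 452 and 306 CPM in SCC6 PBS and at 210 and 136 CPM in SCC25 PBS. The SCC6 values lay above all 4 values of the other lines, and those of SCC1 and SCC25 overlapped. By edgeR's quasi-likelihood F-test with Benjamini-Hochberg adjustment over all genes (FDR), ATF4 was higher in SCC6 than in SCC1 by 1.26 ± 0.27 (log2 fold change ± SE, FDR 0.00448) and than in SCC25 by 1.13 ± 0.27 (FDR 0.00790). Without SCC6 PBS replicate 1, the difference from SCC25 was 0.82 and did not pass (FDR 0.0655), and without SCC25 PBS replicate 2 it was 0.85 (FDR 0.0600).

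ATF3, a stress-induced factor that is both a target and a modulator of the response, was at 77.6 and 61.3 CPM in SCC1 PBS, at 32.7 and 55.5 CPM in SCC6 PBS and at 5.10 and 9.03 CPM in SCC25 PBS. The 3 lines did not overlap. ATF3 was lower in SCC25 than in SCC1, with a log2 difference of -3.30 ± 0.69 (FDR 0.00379), and higher in SCC6 than in SCC25 by 2.64 ± 0.67 (FDR 0.0102), whereas SCC6 and SCC1 were not separated by the test (-0.65 ± 0.63, FDR 0.445). The comparison of SCC6 with SCC25 missed the threshold without SCC6 PBS replicate 2 (2.21, FDR 0.0528) and without SCC25 PBS replicate 1 (2.29, FDR 0.0693). The same order was seen in single cells thinned to 15000 UMIs each: an ATF3 UMI was found in 63.7% and 51.2% of SCC1 PBS cells, in 26.5% and 44.9% of SCC6 PBS cells and in 6.95% and 10.9% of SCC25 PBS cells.

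PSAT1, the aminotransferase of serine synthesis, was at 49.3 and 59.1 CPM in SCC1 PBS, at 107 and 148 CPM in SCC6 PBS and at 129 and 158 CPM in SCC25 PBS. It was higher in SCC6 than in SCC1 by 1.23 ± 0.37 (FDR 0.0228) and in SCC25 than in SCC1 by 1.40 ± 0.37 (FDR 0.0126), and SCC6 and SCC25 overlapped. The SCC6 call depended on single libraries, since the FDR was 0.130 and 0.0718 without SCC1 PBS replicate 1 or 2 and 0.121 without SCC6 PBS replicate 2, and it was 0.0605 with library totals. The SCC25 call was lost without SCC1 PBS replicate 1 (FDR 0.0882) or SCC25 PBS replicate 2 (FDR 0.0583). PHGDH, which catalyses the first step of the same pathway, was at 148 and 231 CPM in SCC1 PBS, at 180 and 276 CPM in SCC6 PBS and at 82.4 and 190 CPM in SCC25 PBS, and the 3 lines overlapped. With the replicate number as a block, PHGDH was lower in SCC25 than in SCC1 (-0.57, FDR 0.0325) and higher in SCC6 than in SCC25 (0.84, FDR 0.00497), so that 3 of the 10 genes were called in each, against 54.7% and 54.4% of all genes.

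None of the remaining genes separated the lines by the reported test, and 1 library stood apart. DDIT3 was at 74.1 and 73.7 CPM in SCC1 PBS and at 59.1 and 47.5 CPM in SCC25 PBS, but at 264 CPM in replicate 1 and 25.3 CPM in replicate 2 of SCC6 PBS. SCC6 PBS thus held both the highest and the lowest untreated value, and no comparison between lines passed the test. The direction was set by 1 library. Without SCC6 PBS replicate 1, DDIT3 was lower in SCC6 than in SCC1 (-1.54, FDR 0.00192) and than in SCC25 (-1.07, FDR 0.0111), and without replicate 2 it was higher than in SCC1 (1.84, FDR 0.000367) and in SCC25 (2.31, FDR 0.000162). DDIT3 was also called higher in SCC6 than in SCC25 when no low-count filter was used (1.44, FDR 0.0178).

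The same SCC6 PBS replicate 1 was high in other targets of the pathway. TRIB3, a pseudokinase that feeds back on ATF4 and CHOP, was at 66.3 CPM in this library and at 22.9 CPM in replicate 2. CHAC1, an enzyme that degrades glutathione, was at 19.0 and 8.22 CPM, and SESN2, a leucine sensor that restrains mTORC1, was at 11.7 and 4.04 CPM. For DDIT3, ATF4 and CHAC1 the value of this library was the highest of all 12, and so it was for SESN2. TRIB3 was not called lower in SCC6 than in SCC1 (-0.96 ± 0.44, FDR 0.106), but it was with library totals (-1.32, FDR 0.0270), with no low-count filter (-0.94, FDR 0.0349) and without this library (-1.92, FDR 0.00647). Without it, TRIB3 was also lower in SCC6 than in SCC25 (-1.27, FDR 0.0351), and SESN2 was lower in SCC6 than in SCC1 (-1.30, FDR 0.00564) and than in SCC25 (-1.33, FDR 0.00561). CHAC1 was called higher in SCC6 than in SCC25 without SCC6 PBS replicate 2 (1.35, FDR 0.0345) or SCC25 PBS replicate 1 (1.52, FDR 0.0376). The amino acid enzymes ASNS, PSAT1 and PHGDH were lower in this library than in replicate 2, at 31.4 against 45.5, 107 against 148 and 180 against 276 CPM. Each was lower in replicate 1 in 6 of 6 groups, so that this order was not particular to this library.

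The high DDIT3 level was not carried by a few cells. A DDIT3 UMI was found in 73.7% of thinned cells in SCC6 PBS replicate 1 (95% interval 72.0 to 75.4, Clopper-Pearson, counting error only) and in 20.6% in replicate 2 (19.1 to 22.3), and unthinned shares were 85.0% and 40.5%. TRIB3 was found in 38.7% and 20.3% of cells, CHAC1 in 16.9% and 7.35% and SESN2 in 12.9% and 5.05%. Some other genes linked to the pathway were higher in replicate 1 as well, and others were not. GDF15, a secreted stress cytokine, was at 550 and 77.4 CPM, PPP1R15A, which encodes the GADD34 subunit that reverses eIF2alpha phosphorylation, at 296 and 82.2 CPM, and CEBPD at 253 and 106 CPM. In contrast, NUPR1 was at 3.54 and 3.82 CPM, ATF5 at 16.0 and 17.1 CPM and EIF2S1, which encodes eIF2alpha, at 54.4 and 118 CPM. EIF2S1 was lower in replicate 1 of SCC1 PBS (74.9 and 121 CPM) and of SCC25 PBS (67.1 and 125 CPM) as well. Heat shock genes differed too, with DNAJB1 at 410 and 111 CPM and HSPA1A at 291 and 140 CPM, whereas HSPA8 was at 821 and 982 CPM. The replicate 1 library had a median of 32438 UMIs per cell and 3.51% mitochondrial UMIs. Replicate 2 had 38691.5 and 5.67%, and the part of these values in the difference was not tested.

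**Figure D1:**
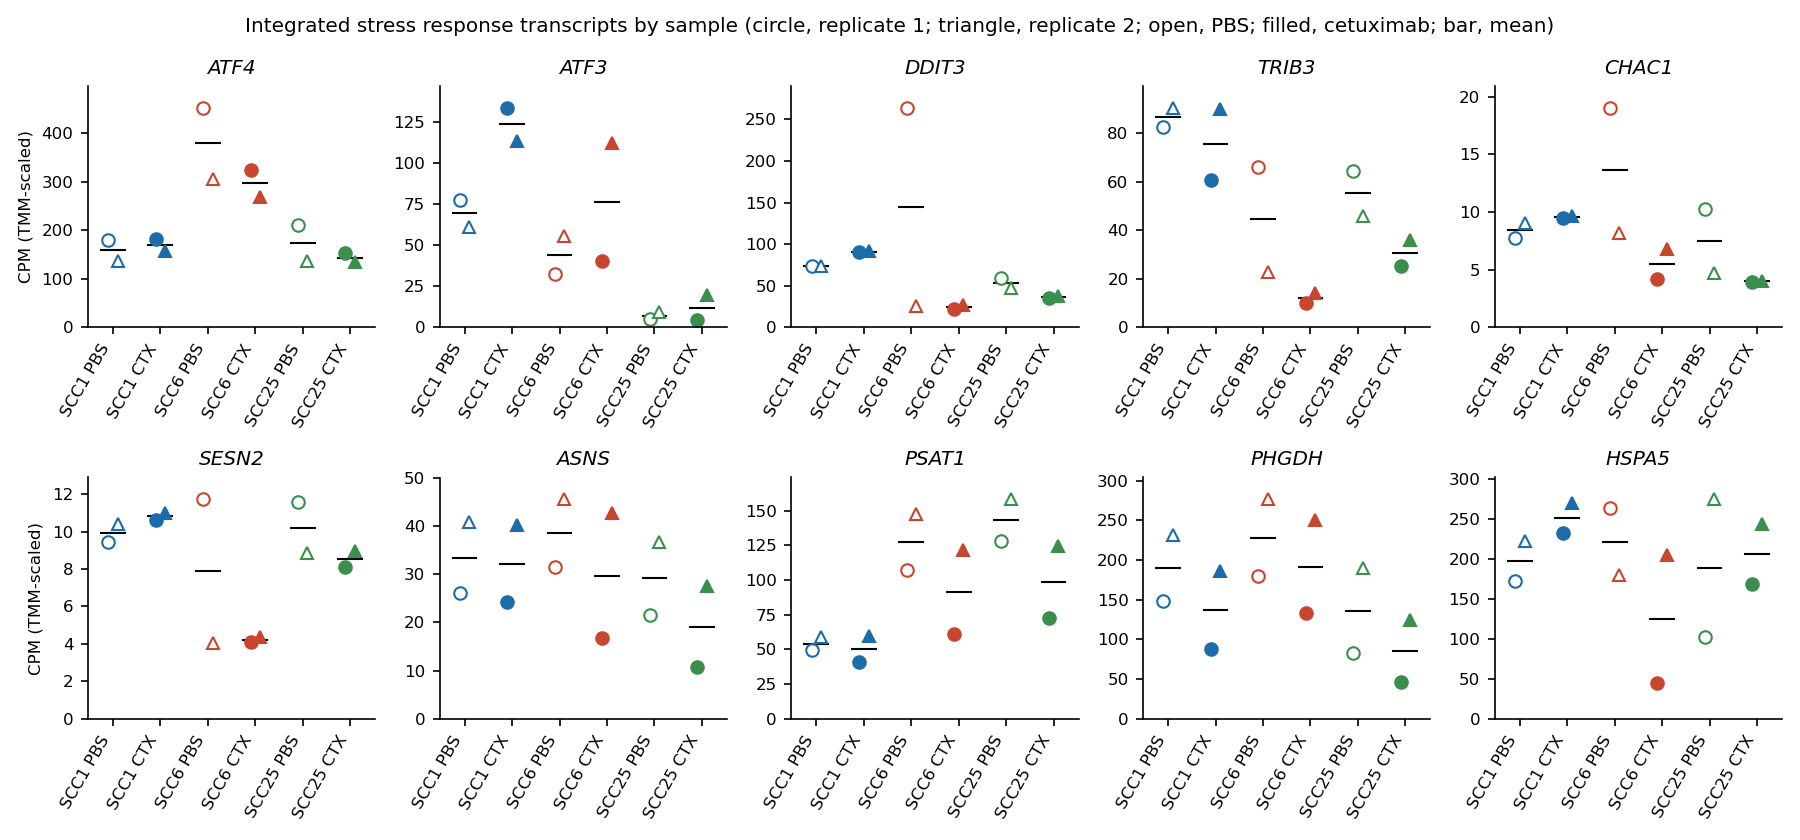
Level of each of the 10 genes (vertical axis, TMM-scaled CPM, linear and starting at 0) in the 12 samples, grouped by line and treatment, with circles for replicate 1, triangles for replicate 2 and bars for the mean of both. DDIT3 stands at 264 CPM in SCC6 PBS replicate 1 and between 22.1 and 91.4 CPM in the other 11 samples, and ATF3 does not exceed 19.5 CPM in SCC25.

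The other parts of the pathway, taken from fixed lists, had calls between untreated lines at shares near or below the 40.2% and 40.8% of all genes. The kinase and phosphatase list held 12 genes, for the eIF2alpha kinases and phosphatase subunits and for EIF2S1, eIF2B, GCN1 and DELE1. Of these 12, 3 were higher and 2 lower in SCC6 than in SCC1. Among them were PPP1R15A (2.16 ± 0.48, FDR 0.00521) and the kinase PKR gene EIF2AK2 (-1.62 ± 0.29, FDR 0.00141). EIF2AK2 was also lower in SCC25 than in SCC1 (-1.34 ± 0.28, FDR 0.00405). Of 21 ER chaperone and unfolded protein response genes other than HSPA5, none was higher and 8 were lower in SCC6 than in SCC1, and none was higher and 9 were lower in SCC25 than in SCC1, with list medians of -0.45 and -0.86 against 0.0033 and 0.040 over all genes. MANF (-1.67 ± 0.29, FDR 0.00122), PDIA4 (-1.56 ± 0.29, FDR 0.00199) and SDF2L1 (-2.29 ± 0.43, FDR 0.00201) were among those lower in SCC25.

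HSPA5 itself was at 171 and 222 CPM in SCC1 PBS, at 263 and 180 CPM in SCC6 PBS and at 102 and 274 CPM in SCC25 PBS, so that the spread within SCC25 covered both other lines. The log2 differences between lines were -0.06 to 0.23 with SE of 0.61, too wide to separate the lines, and without SCC25 PBS replicate 2 the difference of SCC25 from SCC1 was -0.95 (FDR 0.328). Whether HSPA5 differed from the list was not tested. Of 20 cytosolic aminoacyl-tRNA synthetases, 3 were higher in SCC6 and 4 in SCC25 than in SCC1, and none was lower, which is below the 40.2% and 40.8% of all genes. IARS was among them in both (1.33 ± 0.27, FDR 0.00277, and 1.35 ± 0.27, FDR 0.00261).

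Cetuximab was then compared with PBS within each line. By edgeR, none of the 10 genes passed the test in SCC1, where 0.0168% of all genes did, and none passed in SCC25, where 0% did. In SCC6, 1 of 10 passed, against 3.81% of all genes. At an unadjusted p under 0.05 the counts of the 10 genes were 0 in SCC1, 4 in SCC6 and 0 in SCC25. Over all 17897 genes the counts were 1570, 3561 and 1041. DESeq2 called 0 of the 10 genes (against 1.53% of all genes), 3 (9.34%) and 0 (0.564%). Of the 10 fitted changes, 9 were below 0 in SCC6 and 8 in SCC25. Their medians were -0.65 and -0.54, against 0 and -0.0068 over all genes. Without SCC6 CTX replicate 1, 7 were below 0 in SCC6 with a median of -0.30, and without SCC6 CTX replicate 2 all 10 were, with a median of -1.14. Without SCC25 CTX replicate 1 the median in SCC25 was -0.18 with 8 below 0. In SCC1, 4 were below 0 and the median was 0.11. Scaling by library totals moved the median of all genes in SCC6 by 0.23, and 9 of the 10 values remained below 0. The 10 values are not separate observations, because some of the genes varied together over the 12 samples. With the mean of each line removed, Pearson r was 0.99 for DDIT3 and SESN2 and 0.97 for ASNS and PSAT1.

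TRIB3 was the gene called in SCC6. It was at 66.3 and 22.9 CPM with PBS and at 10.2 and 14.2 CPM with cetuximab, with no overlap, and it fell by 1.87 ± 0.45 on the log2 scale (FDR 0.0482). With the replicate block it was the 1 gene called too (-1.69, FDR 0.0313), against 20.1% of all genes. The call sat at the threshold. It was lost when any 1 of the 12 libraries other than SCC6 PBS replicate 2 was left out. Its FDR was 0.0575 with library totals, 0.122 with the SCC6 samples alone and 0.348 without SCC6 PBS replicate 1, where the fitted change was -0.91, and it was 0.0130 without SCC6 PBS replicate 2 (-2.44). TRIB3 was also lower with cetuximab in both pairs of SCC25, at 64.7 and 45.8 CPM with PBS and 25.2 and 35.9 CPM with cetuximab, and this did not pass (-0.85 ± 0.43, FDR 0.900). In SCC1 it was at 82.8 and 90.6 CPM with PBS and at 60.8 and 90.2 CPM with cetuximab, which overlap.

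For DDIT3, 1 library set the size of the difference. In SCC6 it was at 264 and 25.3 CPM with PBS and at 22.1 and 26.5 CPM with cetuximab, so that the first pair changed by -3.58 and the second by 0.07 on the log2 scale. The fitted change of -2.57 ± 0.75 did not pass by edgeR (FDR 0.0880) but did by DESeq2 (-2.59, FDR 0.00384), and without SCC6 PBS replicate 1 it was -0.06 (FDR 0.932). In SCC25, DDIT3 was at 59.1 and 47.5 CPM with PBS and at 34.9 and 38.1 CPM with cetuximab. In SCC1 the order was the other way, at 74.1 and 73.7 CPM with PBS and 90.5 and 91.4 CPM with cetuximab. Neither group pair overlapped, and neither difference passed (-0.55 ± 0.71 and 0.30 ± 0.71, both FDR 1).

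CHAC1 and SESN2 were high and low in much the same samples as DDIT3. In SCC6, CHAC1 was at 19.0 and 8.22 CPM with PBS and at 4.21 and 6.83 CPM with cetuximab (-1.30 ± 0.44, FDR 0.130), without overlap. SESN2 was at 11.7 and 4.04 CPM with PBS and at 4.10 and 4.37 CPM with cetuximab (-0.90 ± 0.39, FDR 0.238), with overlap. CHAC1 was called by DESeq2 (-1.32, FDR 0.0437), and CHAC1, SESN2 and DDIT3 were called by edgeR when SCC6 PBS replicate 2 was left out, with changes of -1.79, -1.47 and -3.44. Without SCC6 PBS replicate 1 the changes were -0.58, 0.06 and -0.06. In SCC1, CHAC1 stood at 7.76 and 9.07 CPM with PBS and 9.51 and 9.69 CPM with cetuximab, and in SCC25 at 10.2 and 4.73 against 3.95 and 4.0 CPM. Over the 12 samples, with the mean of each line removed, DDIT3 correlated with SESN2 (Pearson r 0.99), TRIB3 (0.87) and CHAC1 (0.83), as a description in which SCC6 PBS replicate 1 is 1 of the 12 points and all samples share their replicate numbers.

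The fitted changes of ATF4 were smaller. ATF4 was at 452 and 306 CPM in SCC6 PBS and at 324 and 269 CPM in SCC6 CTX (-0.35 ± 0.27, FDR 0.517). It was at 180 and 137 against 181 and 157 CPM in SCC1 and at 210 and 136 against 153 and 134 CPM in SCC25, and the treatments overlapped in every line. For ATF3 the fitted change was above 0 in all 3 lines, at 0.83, 0.79 and 0.76 in SCC1, SCC6 and SCC25 with FDR of 0.833, 0.538 and 1. It was -0.14 in SCC6 without SCC6 CTX replicate 2 and -0.68 in SCC25 without SCC25 CTX replicate 2. It was at 77.6 and 61.3 CPM in SCC1 PBS and at 134 and 113 CPM in SCC1 CTX, without overlap, at 32.7 and 55.5 against 40.3 and 112 CPM in SCC6, and at 5.10 and 9.03 against 4.43 and 19.5 CPM in SCC25. ATF3 was thus higher with cetuximab in 5 of 6 replicate pairs.

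The amino acid enzymes were lower with cetuximab in nearly all pairs. ASNS, which makes asparagine, and PHGDH were lower in 6 of 6 pairs, as was TRIB3, a pattern held by 10.6% of all genes, and PSAT1 was lower in 5 of 6. ASNS stood at 26.0 and 40.8 CPM with PBS and 24.2 and 40.2 CPM with cetuximab in SCC1, at 31.4 and 45.5 against 16.7 and 42.6 CPM in SCC6, and at 21.5 and 36.8 against 10.7 and 27.5 CPM in SCC25. PHGDH stood at 148 and 231 against 87.5 and 186 CPM in SCC1, at 180 and 276 against 133 and 251 CPM in SCC6 and at 82.4 and 190 against 46.8 and 125 CPM in SCC25. For both genes the treatments overlapped in every line, because replicate 2 was higher than replicate 1 within every group. PSAT1 separated the treatments only in SCC25, at 129 and 158 CPM with PBS and 72.6 and 125 CPM with cetuximab (-0.54 ± 0.37, FDR 0.965).

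HSPA5 showed no common direction. It was at 171 and 222 CPM with PBS and at 231 and 270 CPM with cetuximab in SCC1, without overlap. In SCC25 it was at 102 and 274 against 168 and 243 CPM. In SCC6 it was at 263 and 180 CPM with PBS and at 44.9 and 205 CPM with cetuximab, and the 44.9 CPM of SCC6 CTX replicate 1 was the lowest of all 12 samples. That library also had the lowest median depth, 24078.5 UMIs per cell, and HSPA5 UMIs were found in 38.8% of its thinned cells against 84.8% in replicate 2. The part of depth in this difference was not tested. Counted by treatments that did not overlap, 5 of 10 were higher in SCC1 (ATF3, DDIT3, CHAC1, SESN2 and HSPA5) against 22.3% of all genes, 2 of 10 were lower in SCC6 (TRIB3 and CHAC1) against 21.4%, and 4 of 10 were lower in SCC25 (DDIT3, TRIB3, CHAC1 and PSAT1) against 15.3%.

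**Figure D2:**
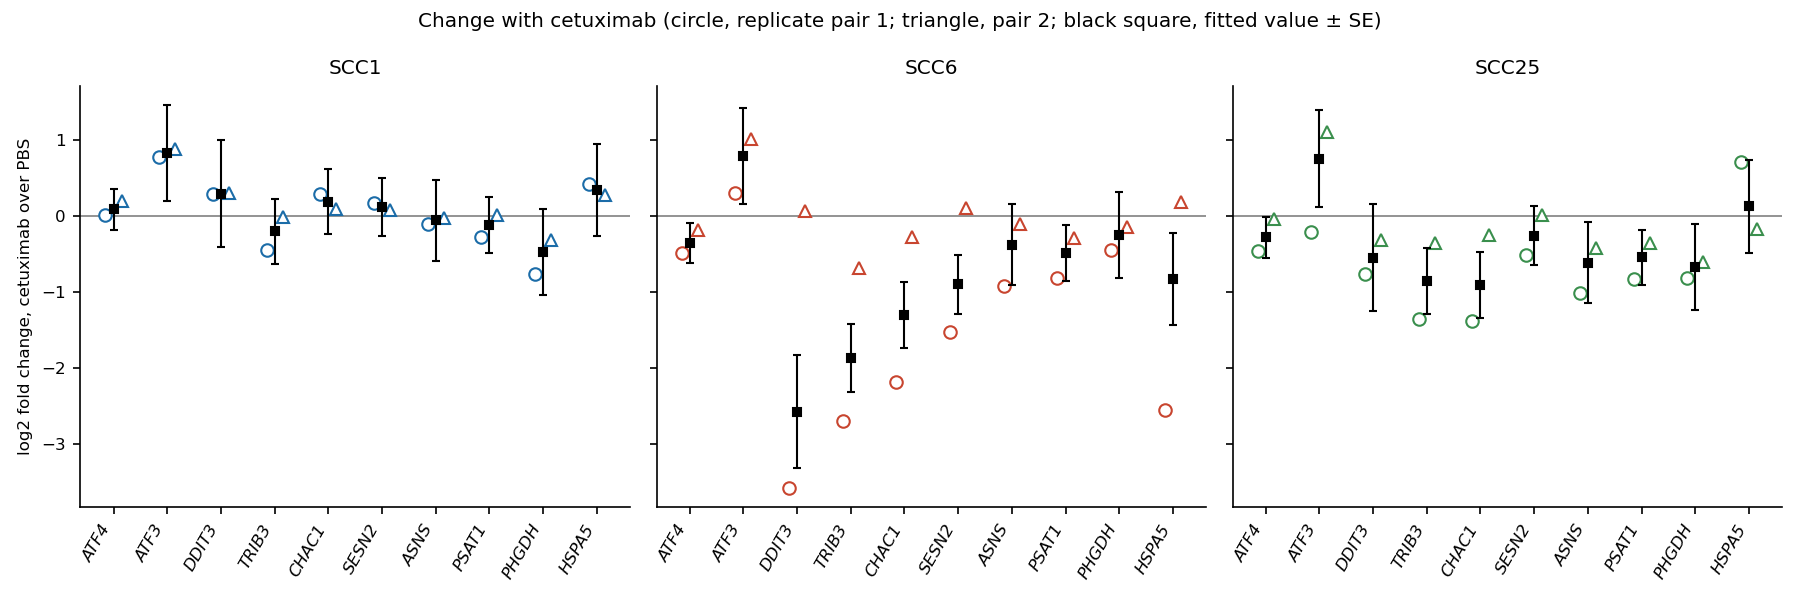
Change with cetuximab for each gene (vertical axis, log2 fold change of cetuximab over PBS) in SCC1, SCC6 and SCC25, with the 2 replicate pairs as open symbols and the fitted value with its SE as a black square. In SCC6 the pairs stand far apart for DDIT3 (-3.58 and 0.07), TRIB3 (-2.70 and -0.69), CHAC1 (-2.18 and -0.27) and HSPA5 (-2.55 and 0.19).

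Across the 3 lines, with the level of each line taken out, none of the 10 genes passed by edgeR, against 3.67% of all genes. At an unadjusted p under 0.05 there were 3 (TRIB3, ATF3 and CHAC1), against 3757 of all 17897 genes. DESeq2 called 1, TRIB3 (-0.97, FDR 0.0251), against 9.9% of all genes. Same-numbered replicates of a line deviated together, and the fit with the replicate number as a block called 2 of the 10 genes, against 11.6% of all genes. PHGDH fell by 0.51 ± 0.10 (FDR 0.0192, against -0.46 ± 0.30 and FDR 0.422 without the block), and ATF3 rose by 0.66 ± 0.17 (FDR 0.0383, against 0.79 ± 0.34 and FDR 0.199). TRIB3 was at -0.97 ± 0.31 (FDR 0.0990) without and -0.89 ± 0.31 (FDR 0.0953) with the block. For the interaction of line and treatment, none of the 10 genes passed by edgeR or DESeq2, against 0% and 1.54% of all genes. By edgeR 1 of them, DDIT3, had an unadjusted p under 0.05, against 1318 of all 17897 genes. With the block 1.29% of all genes passed and none of these 10.

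The surrounding lists gave few calls with cetuximab. Of 15 other regulators and effectors linked to ATF4, 3 fell in SCC6, against 3.81% of all genes called there. They were GDF15 (-3.53 ± 0.83, FDR 0.0450), CEBPD (-1.60 ± 0.35, FDR 0.0365) and CEBPB (-0.92 ± 0.21, FDR 0.0414), with a list median of -0.71. Of these 3, CEBPD was also called with the block (-1.47, FDR 0.00530). At an unadjusted edgeR p under 0.05 this list held 9 of its 15 genes in SCC6, 1 in SCC1 and 0 in SCC25. GDF15 was at 550 and 77.4 CPM with PBS and at 20.9 and 33.3 CPM with cetuximab, with SCC6 PBS replicate 1 again highest. NUPR1, a small stress-induced chromatin protein, was higher with cetuximab in the edgeR fit across lines (0.77 ± 0.18, FDR 0.0366). In SCC1 it was at 100.1 and 87.7 CPM with PBS and at 236 and 198 CPM with cetuximab. It was at 3.54 and 3.82 against 6.90 and 7.32 CPM in SCC6. In SCC25 the treatments overlapped, at 259 and 325 against 260 and 392 CPM. None of the 20 synthetases, 14 enzymes of serine, one-carbon and other amino acid synthesis, 21 ER genes, 12 kinase and phosphatase genes and 9 tested amino acid transporters passed in any line by edgeR. At an unadjusted p under 0.05 these 5 lists together held 6 genes in SCC6, 2 in SCC1 and 1 in SCC25. Over all 17897 genes the counts were 3561, 1570 and 1041. The 12 immediate early and heat shock genes linked to dissociation had no call in any line without the block, 4 at an unadjusted p under 0.05 in SCC6 and a median of -0.51 there. With the block, where 20.1% of all genes were called in SCC6, 7 of 20 synthetases and 4 of 14 synthesis enzymes were lower, among them FARSB (-0.74, FDR 0.00695) and GOT1 (-1.18, FDR 0.00721). In that fit 6 of the other 15 ATF4-linked genes were lower and 2 higher. From the kinase and phosphatase list of 12 genes 1 was lower, EIF2B5 (-0.44, FDR 0.0422), a gene of eIF2B. Also lower were 3 of 12 dissociation-linked genes, HSPA8, DNAJB1 and HSPH1, which encode chaperones and their partners. In SCC1 the block called NUPR1 (1.21, FDR 0.00407), against 4.45% of all genes. Across lines, against 11.6% of all genes, it called 3 synthetases and 3 synthesis enzymes lower and 3 of the other ATF4-linked genes and 1 kinase gene higher. Among them were MTHFD1 (-0.50, FDR 0.0186) and SHMT1 (-0.48, FDR 0.0207), enzymes of the folate cycle, and EIF2AK3 (0.67, FDR 0.0267), the gene of the ER stress kinase PERK.

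By replicate number, 4 of the 10 genes differed, and ATF4 was the only one of them lower in replicate 2. This comparison was added after the values were seen. Over the 6 groups, PHGDH was higher in replicate 2 than in replicate 1 by 0.98 ± 0.12 (edgeR, FDR 0.000574), ASNS by 0.90 ± 0.13 (FDR 0.00102) and PSAT1 by 0.56 ± 0.11 (FDR 0.00418), each in 6 of 6 groups, whereas ATF4 was lower in 6 of 6 (-0.38 ± 0.09, FDR 0.0106). The 4 of 10 genes compare with 26.6% of all genes called, and the 6 of 6 pattern with 14% higher and 13.7% lower. For PHGDH the replicate 2 level was 1.54 to 2.67 times that of replicate 1, and for ASNS 1.45 to 2.57 times.

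The remaining 6 genes were not called by replicate number. ATF3 and HSPA5 were higher in replicate 2 in 4 and 5 of 6 groups, by 0.76 ± 0.29 (FDR 0.0816) and 0.69 ± 0.29 (FDR 0.110), and both were called with no low-count filter (0.77, FDR 0.0285, and 0.70, FDR 0.0466). ATF3 was also called without any 1 of the SCC1 libraries (0.97 to 0.99), and HSPA5 without either SCC6 PBS library (both 0.94). DDIT3, TRIB3, CHAC1 and SESN2 were higher in replicate 2 in 3, 4, 4 and 4 of 6 groups, with fitted differences of -0.44, -0.04, -0.23 and -0.24 that did not pass. Among the fixed lists, 15 of 20 cytosolic synthetases were higher in replicate 2 and none lower, with a median of 0.61 against -0.017 over all genes, led by RARS (1.20 ± 0.12, FDR 0.000362) and FARSB (0.87 ± 0.08, FDR 0.000300). Of 14 synthesis enzymes 5 were higher, led by MTHFD1 (1.11 ± 0.09, FDR 0.000184), and 2 of 9 transporters were higher, including SLC3A2 (1.10 ± 0.14, FDR 0.000832). Of 21 ER genes 2 were higher and 5 lower, of 12 kinase and phosphatase genes 4 were higher and 1 lower, and of 15 other ATF4-linked genes 1 was lower, VEGFA (-1.19 ± 0.18, FDR 0.00120). Of the immediate early and heat shock genes 5 of 12 were higher. The mitochondrial share was higher in replicate 2 in the same 6 groups, and the labels do not say what a replicate number shares, so that its part in these differences was not tested.

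**Figure D3:**
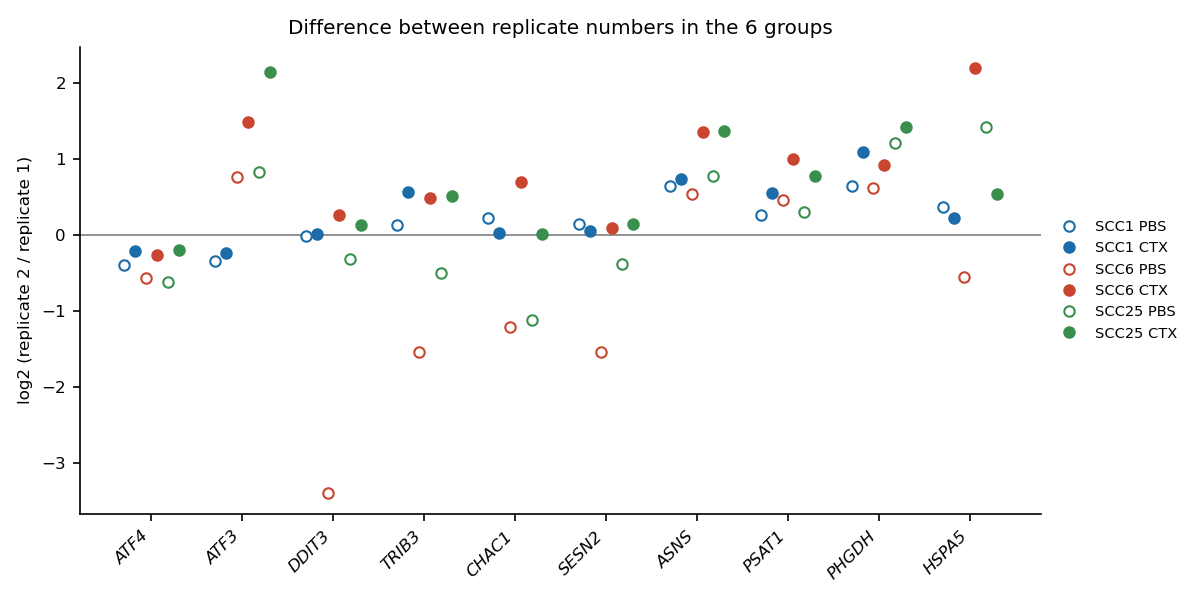
Difference between replicates (vertical axis, log2 of replicate 2 over replicate 1) for each gene in the 6 groups, coloured by line and filled for cetuximab. ASNS, PSAT1 and PHGDH lie above 0 in all 6 groups and ATF4 below 0 in all 6, while DDIT3 in SCC6 PBS stands at -3.38.

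Single cells were used to see whether the genes were high in the same cells. Each cell was thinned to 15000 UMIs, which kept 23063 of 23914 cells. ATF4 was found in 79.3% to 98.5% of cells per sample, HSPA5 in 38.8% to 90.9%, PHGDH in 40.8% to 92.2% and PSAT1 in 44.5% to 76.0%. CHAC1 and SESN2 were sparse, at 4.52% to 16.9% and 5.05% to 16.5%. Of the 8 blood and endothelial markers, which epithelial lines should lack, CD14 was found in up to 16.6% of thinned cells and the others in at most 0.573%. The variance of thinned counts exceeded the mean for every gene in every sample. The ratio of variance to mean was 2.51 to 10.4 for HSPA5, 2.23 to 4.65 for DDIT3, 1.73 to 3.69 for TRIB3 and 1.01 to 1.35 for SESN2. For ATF3 it was 6.39 in SCC25 CTX replicate 1, where 1 cell held 28 UMIs, and 1.27 to 2.60 in the other 11 samples.

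Cells were split in each sample into those with and those without a CHAC1 UMI, which left 90 to 449 positive cells per sample. Mean TRIB3 counts were higher in CHAC1-positive cells by a median factor of 2.55 over the 12 samples, with a range of 1.99 to 3.85. The factor was 2.23 for SESN2 (1.84 to 3.07), 1.92 for DDIT3 (1.53 to 5.21) and 1.88 for ASNS (1.41 to 2.76). It was 1.71 for PSAT1 (1.22 to 2.70), 1.57 for ATF4 (1.25 to 1.78) and 1.26 for PHGDH (1.05 to 1.70). These 7 genes were above 1 in 12 of 12 samples, against 1.67% of 8204 genes with enough counts. ATF3 was above 1 in 11 of 12 samples (median 1.38) and HSPA5 in 6 of 12 (median 0.960). The HSPA5 factor differed by line. In SCC6 it was 1.37 and 1.29 with PBS and 1.71 and 1.04 with cetuximab. In SCC1 it was 0.838 and 0.874 with PBS and 0.915 and 0.872 with cetuximab. In SCC25 it was 1.00 and 1.09 with PBS and 0.860 and 0.916 with cetuximab.

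For these 7 genes the relation was present in PBS and in cetuximab samples, in all 3 lines and in both replicates, including the libraries in which the summed levels of CHAC1 and ASNS ran in opposite directions. Of the 20 genes with the highest median factor, 6 were from the 9 other genes followed here, 8 from the 98 measured genes of the fixed lists and 6 from neither. TRIB3 ranked first. From the lists, STC2 (2.25), CEBPG (1.80), DDIT4 (1.74), MTHFD2 (1.71), SLC7A11 (1.69) and GPT2 (1.68) stood among these 20. Above 1 in 12 of 12 samples were 7 of 20 synthetases, 5 of 8 transporters, 4 of 10 synthesis enzymes and 4 of 11 other ATF4-linked genes, compared with 2 of 19 ER genes and 0 of 12 immediate early and heat shock genes that mark dissociation. Cells are not replicates and no test was made on them, and doublets were not called.

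Splitting by DDIT3 gave a similar order, with median factors of 2.79 for CHAC1, 2.23 for TRIB3 and 1.96 for SESN2, each above 1 in 12 of 12 samples. ASNS and PSAT1 were weaker (both 1.30, above 1 in 11 of 12), and HSPA5 was above 1 in 12 of 12 (1.14), unlike in the CHAC1 split. ATF4 was above 1 in 12 of 12 (1.23), PHGDH in 10 of 12 (1.12) and ATF3 in 8 of 12 (1.14). In SCC6 PBS replicate 1, PSAT1 and PHGDH were below 1, at 0.874 and 0.878. Of the same 8204 genes, 1.74% were above 1 in every sample.

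**Figure D4:**
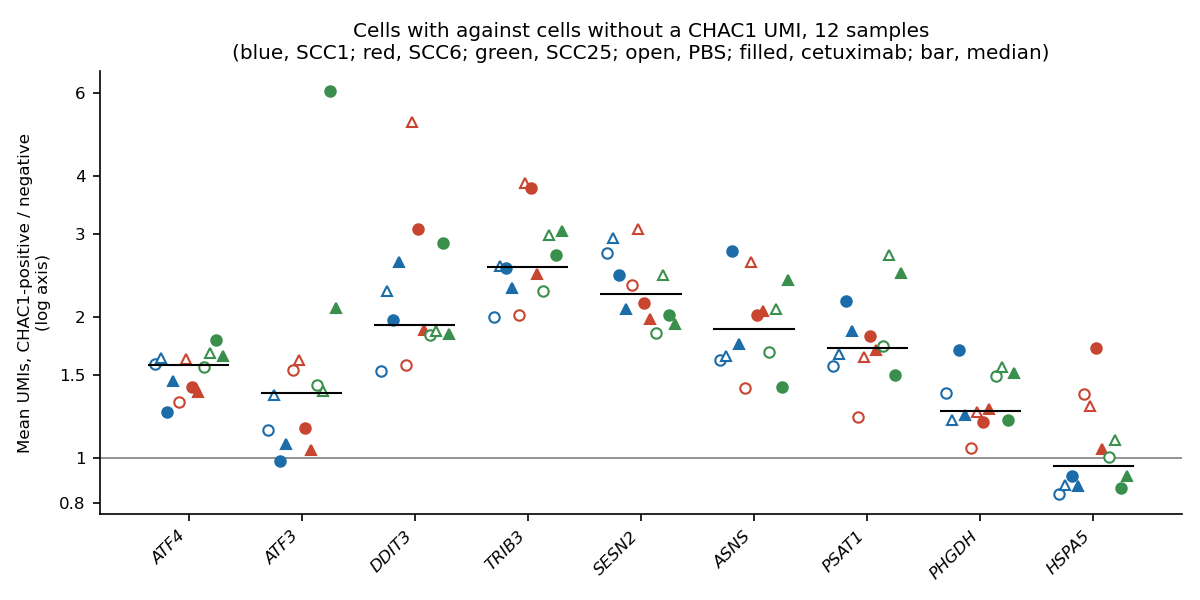
Ratio of mean UMIs in cells with a CHAC1 UMI to that in cells without one (vertical axis, log scale) for the other 9 genes in the 12 samples, with the median as a bar. TRIB3, SESN2, DDIT3, ASNS, PSAT1, ATF4 and PHGDH lie above 1 in all 12 samples, while HSPA5 lies on both sides of 1 with a median of 0.960.

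The genes most like the group across samples were also named. For the mean of the 8 genes other than ATF4 and HSPA5, with the mean of each line removed, the highest Pearson r over the 12 samples among 9620 genes were those of DDX59 (0.93), PCIF1 (0.92), ACSS2 (0.92), SARS (0.92) and DUSP5 (0.91). SARS, the cytosolic seryl-tRNA synthetase, was the 1 gene of these 5 in a fixed list. For HSPA5 they were TOLLIP (0.95), GIPC1 (0.95), LRRC42 (0.94), VDAC2 (0.94) and HSPA1A (0.94). Without the 2 samples farthest from the median, r was 0.73 to 0.85 for the former and 0.81 to 0.85 for the latter. These values are descriptions over samples that share lines and replicate numbers.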

How the data were processed

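The deposited count tables hold whole UMI counts per gene and cell, made by the authors with the 10x Chromium 3′ v2 kit; the submitters' processing notes name Cell Ranger (version not given in the sources used here) and GRCh38. Cell tables deposited with them hold other values, the cell names that gave each cell its sample. Each table had 33538 gene lines and 33514 symbols, and the 24 repeated lines were added to the first of their symbol. All 23914 cells were used, with no filter, clustering or doublet caller, and 0 value columns were left unused.

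Counts were summed over cells per sample, giving 57057402 to 112170073 UMIs each. Sums were filtered with filterByExpr, scaled by TMM and tested with edgeR 4.0.16 (quasi-likelihood, all 12 samples in 1 fit, 6 groups) in R 4.3.3, with a Benjamini-Hochberg threshold of 0.05 over 17897 genes. The script was tested on simulated counts. For shares of cells and splits, each cell was thinned to 15000 UMIs (851 cells were left out) in Python 3.11.15 with numpy 2.4.6 and pandas 2.3.3. Intervals are Clopper-Pearson at 95% and cover counting error only. The split used genes with a mean of at least 0.05 thinned UMIs in every sample. Alternatives were DESeq2 1.42.0, its size factors, no filter, library totals, the replicate block, only the samples of a contrast, fewer cells, thinned sums and leaving out each library. Promoter windows came from the RefSeq table of GRCh38.p14.

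The members and lists were chosen with earlier results of these data known. The rule was to name all 10 genes in every comparison, and where a comparison called few of them the others are given by counts. From each list the called genes were counted and up to 4 with the smallest p were named, and the 5 genes of highest Pearson r were named as most alike. Library totals and the comparison of replicate numbers were chosen after seeing the data. Same-numbered replicates of a line deviated together from their group means (r 0.659 in SCC1, 0.590 in SCC6 and 0.718 in SCC25 over 9640 genes). The labels give the numbers but not what they share, nor whether replicates were separate cultures, so p-values may measure technical spread only.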

Additional observations from a re-analysis of the deposited data

Results flagged for a closer look

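For 2 genes the order of cetuximab and PBS samples was opposite in different lines. Both cetuximab samples lay above both PBS samples in 1 line and below them in another. Of all genes, 22.3% were higher without overlap in SCC1, 21.4% lower in SCC6 and 15.3% lower in SCC25. In the other direction, also without overlap, 20.4% were lower in SCC1, 25.5% higher in SCC6 and 14.4% higher in SCC25. The share of all genes with opposite orders in 2 lines was not counted. Such orders in these 2 genes are therefore not shown to be more frequent than among all genes. For DDIT3, the cetuximab samples were higher in SCC1 and lower in SCC25, and the fitted log2 effects of 0.30 and -0.55 differed by 0.85. For CHAC1, they were higher in SCC1 and lower in SCC6 and SCC25, and the SCC1 effect of 0.19 exceeded those of -1.30 and -0.91 by 1.49 and 1.10. The edgeR test of the difference between lines gave an unadjusted p of 0.0464 for DDIT3 (FDR 0.667) and 0.0821 for CHAC1 (FDR 0.739), so that neither passed after adjustment. By replicate pairs alone, ATF4 was also higher in both pairs of SCC1 (log2 changes of 0.013 and 0.20). It was lower in both pairs of SCC6 (-0.48 and -0.18) and SCC25 (-0.46 and -0.031), with treatments that overlapped in every line. Of all genes, 35.4% were higher in both pairs of SCC1, 35.3% lower in both of SCC6 and 32.1% lower in both of SCC25.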

How the results depend on the processing

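The number of the 10 genes called with cetuximab in SCC6 was 1 by the reported test, 0 with library totals, with the SCC6 samples alone, without the 5% of cells with most UMIs, without cells over 20% mitochondrial UMIs and with thinned cells, and 3 with no low-count filter and with DESeq2. Leaving out 1 library gave 0 to 4. Across the 3 lines it was 0, but 1 with no low-count filter or DESeq2 and 2 with the replicate block. For the interaction it was 0, but 1 with no filter and 0 to 1 with 1 library left out. Between untreated lines 2 were called in each comparison by the reported test, 3 between SCC6 and SCC1 and between SCC6 and SCC25 with no filter, and 3 in both comparisons with SCC25 with the block. Leaving out 1 library gave 1 to 5 for SCC6 and SCC1, 1 to 2 for SCC25 and SCC1 and 1 to 4 for SCC6 and SCC25. In SCC1 and SCC25 the count with cetuximab was 0 under every alternative run. The replicate block, a pairing by replicate number, changed no other call of the 10 genes than those given beside the results. It raised the number of all genes called from 3 to 797 in SCC1, from 682 to 3589 in SCC6 and from 0 to 175 in SCC25. In SCC6 that number was 856 with library totals and 1671 with DESeq2. Across lines it was 656 by the reported test, 1771 with DESeq2 and 2073 with the block. Where no number over all genes is given, a change in the count of the 10 genes cannot be told from a change in the whole fit.

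Of 1850 recomputed values for 90 results under 21 alternatives, 1731 kept direction and side of the threshold, 34 gained a call, 26 lost one and 59 changed sign, 57 of them without a call either way. Library totals shifted the median of all genes by 0.23 for cetuximab in SCC6, 0.11 across lines, -0.31 for SCC6 against SCC1, -0.15 for SCC25 against SCC1 and -0.15 for SCC6 against SCC25. The sign changed with them for ASNS with cetuximab in SCC1 (0.0045), for ASNS (-0.11), HSPA5 (-0.17) and PHGDH (-0.044) between SCC6 and SCC1, and for ATF4 (-0.059) and SESN2 (-0.14) between SCC25 and SCC1. The remaining changes of sign came from leaving out 1 library. For cetuximab in SCC1 the fitted log2 differences ranged from -0.46 to 0.30 for ASNS, -0.090 to 0.30 for ATF4, -0.41 to 0.13 for PSAT1 and -0.51 to 0.049 for TRIB3. For cetuximab in SCC6 they were -1.21 to 0.15 for ASNS, -0.14 to 1.35 for ATF3, -0.79 to 0.14 for PHGDH and -1.47 to 0.062 for SESN2. For cetuximab in SCC25 they were -0.68 to 1.48 for ATF3, -0.55 to 0.066 for ATF4, -0.41 to 1.01 for HSPA5 and -1.54 to 0.059 for PHGDH. Between untreated SCC6 and SCC1 they were -0.089 to 0.56 for ASNS, -0.034 to 1.18 for CHAC1, -1.54 to 1.84 for DDIT3, -0.13 to 0.42 for HSPA5, -0.076 to 0.62 for PHGDH and -1.30 to 0.24 for SESN2. Between untreated SCC25 and SCC1 they were -0.64 to 0.16 for ASNS, -0.21 to 0.41 for ATF4, -0.83 to 0.28 for CHAC1, -0.95 to 0.48 for HSPA5, -1.21 to 0.0043 for PHGDH and -0.16 to 0.22 for SESN2. Between untreated SCC6 and SCC25 they were -1.07 to 2.31 for DDIT3, -0.31 to 1.12 for HSPA5, -0.42 to 0.047 for PSAT1, -1.33 to 0.20 for SESN2 and -1.27 to 0.27 for TRIB3. For cetuximab across lines they were -0.29 to 0.15 for HSPA5. Between replicate 2 and 1 they were -0.59 to 0.018 for DDIT3, -0.34 to 0.012 for SESN2 and -0.18 to 0.24 for TRIB3. The cause was not tested. With 2 replicates a group, a gene without a call is not shown to be unaffected.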

Other observations

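Cells were also split by MKI67, a gene of proliferating cells. PSAT1 and PHGDH were higher in MKI67-positive cells in 12 of 12 samples, by median factors of 1.51 and 1.39, as were 7 of 10 genes of the serine, one-carbon and amino acid synthesis list. Of all 8204 genes, 19.0% were above 1 in every sample. DDIT3 had a median factor of 0.80 and was above 1 in 2 of 12 samples, and ATF3 (0.885) and HSPA5 (0.891) were likewise above 1 in 2 of 12.

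Among the 20 genes highest in CHAC1-positive cells, those that belonged to no list included 5 that were named after their values were seen. They were CAMTA2 (median factor 2.27, lowest sample 0.805), PCK2 (1.77, lowest 1.31), LURAP1L (1.73, lowest 1.09), KLF4 (1.70, lowest 1.01) and BBC3 (1.61, lowest 0.941). PCK2 encodes the mitochondrial phosphoenolpyruvate carboxykinase and BBC3 the apoptosis regulator PUMA.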
